A study of Mus musculus with 6 samples.

Results

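The subunits of the respiratory chain and of ATP synthase that are encoded in the nucleus were followed across the Achilles tendon transcriptome of wild-type (WT) and Piezo1 mutant mice. They were chosen by gene symbol, by a rule that uses no measured value but was set with earlier results of these data known. For complex I it took Ndufa, Ndufb, Ndufc, Ndufs and Ndufv symbols that go on with a number, which leaves out Ndufab1. It took Sdha to Sdhd for complex II, Uqcr genes and Cyc1 for complex III, and Cycs for cytochrome c. Cox4 to Cox8 genes were taken for complex IV and Atp5 genes for complex V. The rule gave 85 of the 24411 genes in the table, namely 36 of complex I, 4 of complex II, 9 of complex III, 1 for cytochrome c, 18 of complex IV and 17 of complex V. Subunits encoded in the mitochondrial genome were not analysed here. Total RNA came from C57BL/6 mice aged 18 weeks, with 3 libraries from WT animals and 3 from Scx-Cre/Piezo1 GOF animals. The latter, here called mutant, carry Scx-Cre, in which regulatory sequence of Scx, a transcription factor gene of tendon cells, drives the recombinase Cre, together with a gain-of-function (GOF) form of the mechanosensitive ion channel Piezo1. For the WT group the labels name no Cre and no Piezo1 allele.

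The respiratory chain sits in the inner mitochondrial membrane and passes electrons from NADH (complex I) and succinate (complex II) through ubiquinone, complex III and cytochrome c to oxygen at complex IV. Complexes I, III and IV pump protons, and complex V, the ATP synthase, uses the gradient to make ATP. Tendon is poor in mitochondria and leans on glycolysis, while the skeletal muscle it joins is rich in them. Complex IV of heart and skeletal muscle also carries its own paralogs of several subunits in place of the forms found in most tissues.

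Library totals lay between 8131527 and 17180856 counts. Levels are given as CPM, the counts of a gene scaled to a common library size, always in the order of replicates 1 to 3. Log2 fold changes are mutant over WT, with their standard errors (SE). The labels do not say that the libraries came from separate animals, so p-values measure only how these samples vary, and that variation may be technical. Contractile skeletal muscle genes, a list of 28, took the following shares of counts: 9.1%, 17.2% and 14.5% in WT tendon and 7.75%, 2.9% and 7.12% in mutant tendon, so the muscle share was lower in each mutant library than in each WT library. Tenocyte markers had the opposite order, with 1.6%, 0.456% and 0.953% in WT tendon and 2.7%, 5.5% and 3.44% in mutant tendon. WT replicate 1 stood apart by its smooth muscle and Schwann cell transcripts. Acta2, smooth muscle actin, was at 1945.9 CPM there against 120.4 to 163 CPM in the other 5 libraries. Schwann cell markers took 0.377% of counts in WT replicate 1, against 0.0146% and 0.0215% in the other WT libraries. In mutant tendon they took 0.0472%, 0.064% and 0.048%. The 4 tested genes of a smooth muscle list added after values were seen had a median of -2.06 (log2 fold change), with overlapping groups for each. Piezo1 was at 144, 115 and 103 CPM in WT tendon and 178, 128 and 152 CPM in mutant tendon (log2 fold change 0.34 ± 0.23; edgeR adjusted p = 0.442). The groups overlapped, and the level of the transcript is no check of a GOF genotype.

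Transcripts for the respiratory chain were lower in the mutant tendons for nearly all subunits, by a modest amount, and the few that were higher were all complex IV paralogs. Of the 81 members with enough counts to be tested, 78 had a negative log2 fold change, and the median was -0.52, against -0.0045 over all 13466 genes tested, of which 50.3% were negative. The 3 with a positive value were Cox4i2, Cox6a1 and Cox8a. No member passed the threshold: the edgeR quasi-likelihood fit, with p-values adjusted by Benjamini-Hochberg over all genes, gave 0 members higher and 0 members lower, where 0.0149% of all genes were called higher and 0% lower. Without adjustment, 15 members had p under 0.05 and were lower (18.5% of those tested) and 3 were higher, against 9.59% and 10.2% of all genes. The groups did not overlap for 29 members that were lower (35.8%) and 2 that were higher, against 12.1% and 13.6% of all genes. DESeq2 called 2 members lower, Cox6a2 and Cox8b (2.74% of its genes), and 1 higher, Cox4i2 (3.73%), and edgeR's exact test called Cox8b lower (1.76%) and Cox4i2 higher (3.36%). Limma voom called 0 members in either direction (0.72% of genes higher, 0.141% lower).

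As a share of all counts, the 85 members together made up 2.0%, 1.51% and 1.72% in WT tendon and 1.49%, 0.949% and 1.21% in mutant tendon. The 3 mutant libraries lay below the 3 WT libraries, with means of 1.74 ± 0.248% and 1.21 ± 0.27% (SD, n = 3 each). A two-sided exact permutation test gave p = 0.1, the smallest that 3 against 3 allows, and 0.175 after adjustment over the 7 shares tested. Rn45s, a ribosomal RNA precursor, took 6.42% to 13.9% of counts and Lars2, a mitochondrial tRNA synthetase gene, 3.31% to 8.11%. With both left out of the totals the groups overlapped (difference -0.60 percentage points against -0.53, exact permutation p = 0.2), and with the contractile muscle genes left out as well the difference was -0.86 (exact permutation p = 0.1). In bulk RNA, fewer cells of a type and less RNA per cell cannot be told apart, and the part that the lower muscle share has in the member share was not tested by this comparison. By their medians, the mutant libraries differed among themselves more than the WT libraries did. The median member stood at 0.044, -0.17 and 0.1 in WT tendon and -0.18, -0.86 and -0.60 in mutant tendon, on a log2 scale relative to the member's WT mean. Piezo1 GOF replicate 2 had the lowest value of all 6 libraries for 55 of the 81 members, and it was the library with the smallest muscle share. Piezo1 GOF replicate 1 lay within the WT range for 46 members, below it for 32 and above it for 3. The median fold change was -0.34 without Piezo1 GOF replicate 2.

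**Figure D1:**
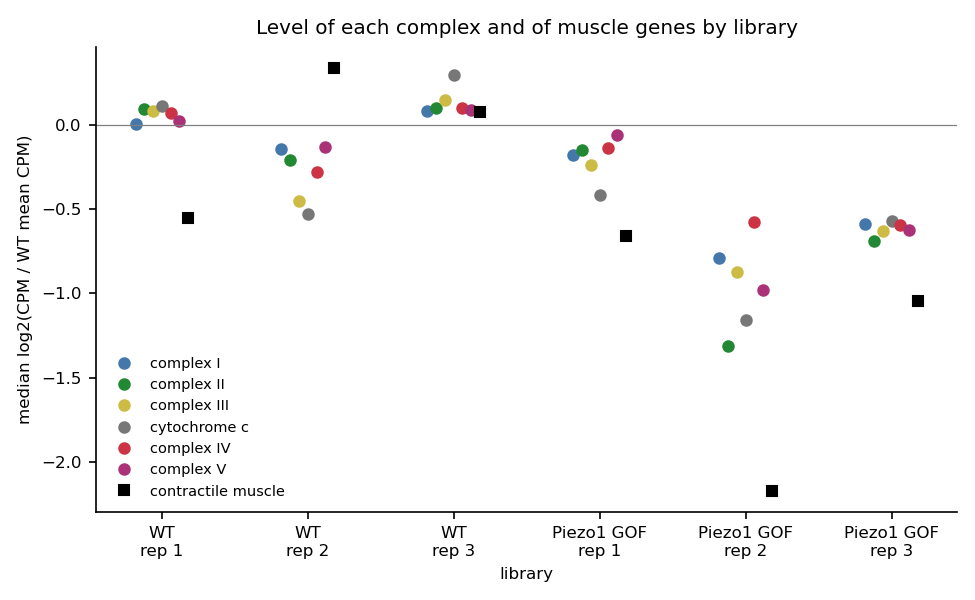
Median over the tested members of each complex of log2(CPM / WT mean CPM), and the same for contractile muscle genes (squares), in each of the 6 libraries. Piezo1 GOF replicates 2 and 3 lie lowest for the members. Contractile muscle genes lie below the members in every mutant library, in WT replicate 1 and, narrowly, in WT replicate 3. In WT replicate 2 they lie above the members.

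Complex I, the NADH dehydrogenase, had 35 tested members, all with negative fold changes between -0.88 (Ndufv2) and -0.14 (Ndufc1) and a median of -0.45. Of these, 7 (20%) had an unadjusted p under 0.05, against 9.59% of all genes in that direction. The groups did not overlap for 15 (42.9%), against 12.1% of all genes. The 7 core subunits encoded in the nucleus, which hold the flavin and the iron-sulfur clusters, had a median of -0.59, and the 28 tested accessory subunits one of -0.43. Ndufv2, a core subunit with an iron-sulfur cluster, was at 129, 92.6 and 150.2 CPM in WT tendon and 90.9, 39.02 and 71.7 CPM in mutant tendon. Each mutant library was below the lowest WT library, yet the difference missed the threshold over all genes, and was -0.58 without Piezo1 GOF replicate 2 (log2 fold change -0.88 ± 0.33; edgeR adjusted p = 0.203). Ndufv2 overlaps a small nuclear RNA gene and a processed pseudogene on the other strand, whose reads its counts may hold. Overlaps with other genes were looked up for only some of the genes named, and the rest were not checked. Ndufa9, an accessory subunit next to the ubiquinone site, was at 98.6, 92.04 and 104 CPM in WT tendon and 80.4, 45.3 and 62.5 CPM in mutant tendon. Its groups did not overlap either, with a log2 fold change of -0.65 ± 0.24 (edgeR adjusted p = 0.205).

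The groups were also separate for other subunits counted with complex I. Ndufb3 was at 26.5, 26.4 and 27.1 CPM in WT tendon and 21.7, 13.6 and 18.1 CPM in mutant tendon. Its WT values spanned less than 1 CPM and all 3 mutant values were lower (-0.58 ± 0.23; edgeR adjusted p = 0.217). Ndufa12 was at 36.8, 43.6 and 42.99 CPM in WT tendon and 34.1, 26.2 and 25.1 CPM in mutant tendon. The groups did not overlap, and Piezo1 GOF replicate 1 was nearest to WT (-0.54 ± 0.21; edgeR adjusted p = 0.215). Ndufa4 had the highest CPM of the complex I genes and is, by textbook knowledge, a subunit of complex IV in spite of its name. It was at 564, 423 and 589 CPM in WT tendon and 412, 223 and 335 CPM in mutant tendon, with no overlap (-0.70 ± 0.31; edgeR adjusted p = 0.256). Ndufa2 and Ndufc1 lay at the other end: their means were 83.98 ± 17.2 and 74.7 ± 5.66 CPM and 50.3 ± 9.11 and 45.7 ± 10.7 CPM in WT and mutant (SD, n = 3 each), with overlapping groups. Their fold changes of -0.17 ± 0.21 and -0.14 ± 0.24 turned to 0.0012 without WT replicate 2 for Ndufa2, and to 0.018 without WT replicate 1 and 0.026 without Piezo1 GOF replicate 3 for Ndufc1. The median of complex I was -0.69 without Piezo1 GOF replicate 1.

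Complex II, the succinate dehydrogenase that is also an enzyme of the citric acid cycle, had 4 members, all with negative fold changes and a median of -0.64. The iron-sulfur subunit Sdhb was at 456, 411 and 431 CPM in WT tendon and 390.5, 147 and 224 CPM in mutant tendon. The WT values lay close together, and the mutant libraries ran from replicate 1, just below them, to replicate 2, the lowest (-0.77 ± 0.36; edgeR adjusted p = 0.275). The membrane anchor Sdhd had means of 242 ± 27.6 CPM (WT) and 152 ± 63.97 CPM (mutant) (SD, n = 3 each; -0.68 ± 0.34), without overlap, and the other anchor, Sdhc, 106 ± 16.4 CPM (WT) and 69.5 ± 24.8 CPM (mutant) (-0.61 ± 0.28), with overlap. The flavoprotein Sdha had the smallest difference, with 375 ± 66.7 CPM (WT) and 279 ± 73.7 CPM (mutant) (-0.43 ± 0.29) and overlapping groups. Without Piezo1 GOF replicate 2 the median of the 4 was -0.38 and Sdhb was at -0.47, while Sdhb was at -1.22 without Piezo1 GOF replicate 1.

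All 9 members of complex III had negative fold changes, with a median of -0.60. Uqcrc2, a core protein of the complex, was at 275, 252 and 291 CPM in WT tendon and 229.9, 91.7 and 161 CPM in mutant tendon. No mutant library reached the WT range (-0.76 ± 0.33; edgeR adjusted p = 0.25). Uqcrc1, the other core protein and the gene with the highest CPM of the complex, was at 633, 529 and 609 CPM in WT tendon and 535, 157 and 318 CPM in mutant tendon. Here Piezo1 GOF replicate 1 lay within the WT range and the groups overlapped (-0.81 ± 0.42; edgeR adjusted p = 0.311). The small subunits Uqcr10 and Uqcr11 had means of 118 ± 9.93 and 88.9 ± 10.9 CPM and of 199.8 ± 10.5 and 139.6 ± 33.3 CPM in WT and mutant (SD, n = 3 each), without overlap, while Uqcrh overlapped at 116 ± 27.3 and 83.7 ± 6.3 CPM. Uqcrb, at 14.9 ± 6.07 and 11.4 ± 2.13 CPM, had far fewer counts than the rest. Cycs, which encodes the cytochrome c that carries electrons from complex III to complex IV, was at 208, 133 and 237 CPM in WT tendon and 144, 86.4 and 129.6 CPM in mutant tendon. WT replicate 2 lay below Piezo1 GOF replicate 1, so the groups overlapped (-0.68 ± 0.30; edgeR adjusted p = 0.25). Without Piezo1 GOF replicate 2 the complex III median was -0.40, and Uqcrc1 and Uqcrc2 were both at -0.45, while Uqcrc1 was at -1.32 without Piezo1 GOF replicate 1.

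ATP synthase genes took the largest share of counts of the complexes, with 0.797%, 0.614% and 0.682% in WT tendon and 0.60%, 0.338% and 0.471% in mutant tendon. All 17 genes that the symbol rule counts with complex V had negative fold changes, between -0.79 (Atp5b) and -0.19 (Atp5s), with a median of -0.54. Atp5s and Atp5sl belong to neither group of subunits given below, and without them the highest value was -0.25 (Atp5k). Atp5b, the catalytic beta subunit, was at 1959.9, 2048 and 2048 CPM in WT tendon and 1563, 766 and 1167 CPM in mutant tendon. The WT libraries nearly coincided and every mutant library was lower (-0.79 ± 0.38; edgeR adjusted p = 0.28). Atp5c1, the central stalk subunit that turns inside the F1 head, was at 354, 309 and 429.7 CPM in WT tendon and 284, 177 and 207 CPM in mutant tendon, again without overlap (-0.71 ± 0.28; edgeR adjusted p = 0.217). The 5 subunits of the F1 head and central stalk had a median of -0.71 and the 10 of the membrane part and peripheral stalk one of -0.46. In the latter, the peripheral stalk genes Atp5h and Atp5o had means of 84.2 ± 17.1 and 54.7 ± 12.3 CPM (overlapping) and 427 ± 27.1 and 263 ± 98.8 CPM (not overlapping) in WT and mutant (SD, n = 3 each). Atp5k, at 69.97 ± 16.4 and 58.8 ± 8.48 CPM, and Atp5s, at 7.91 ± 0.99 and 6.94 ± 1.34 CPM, differed least (-0.25 ± 0.24 and -0.19 ± 0.30). The complex V median was -0.30 without Piezo1 GOF replicate 2.

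**Figure D2:**
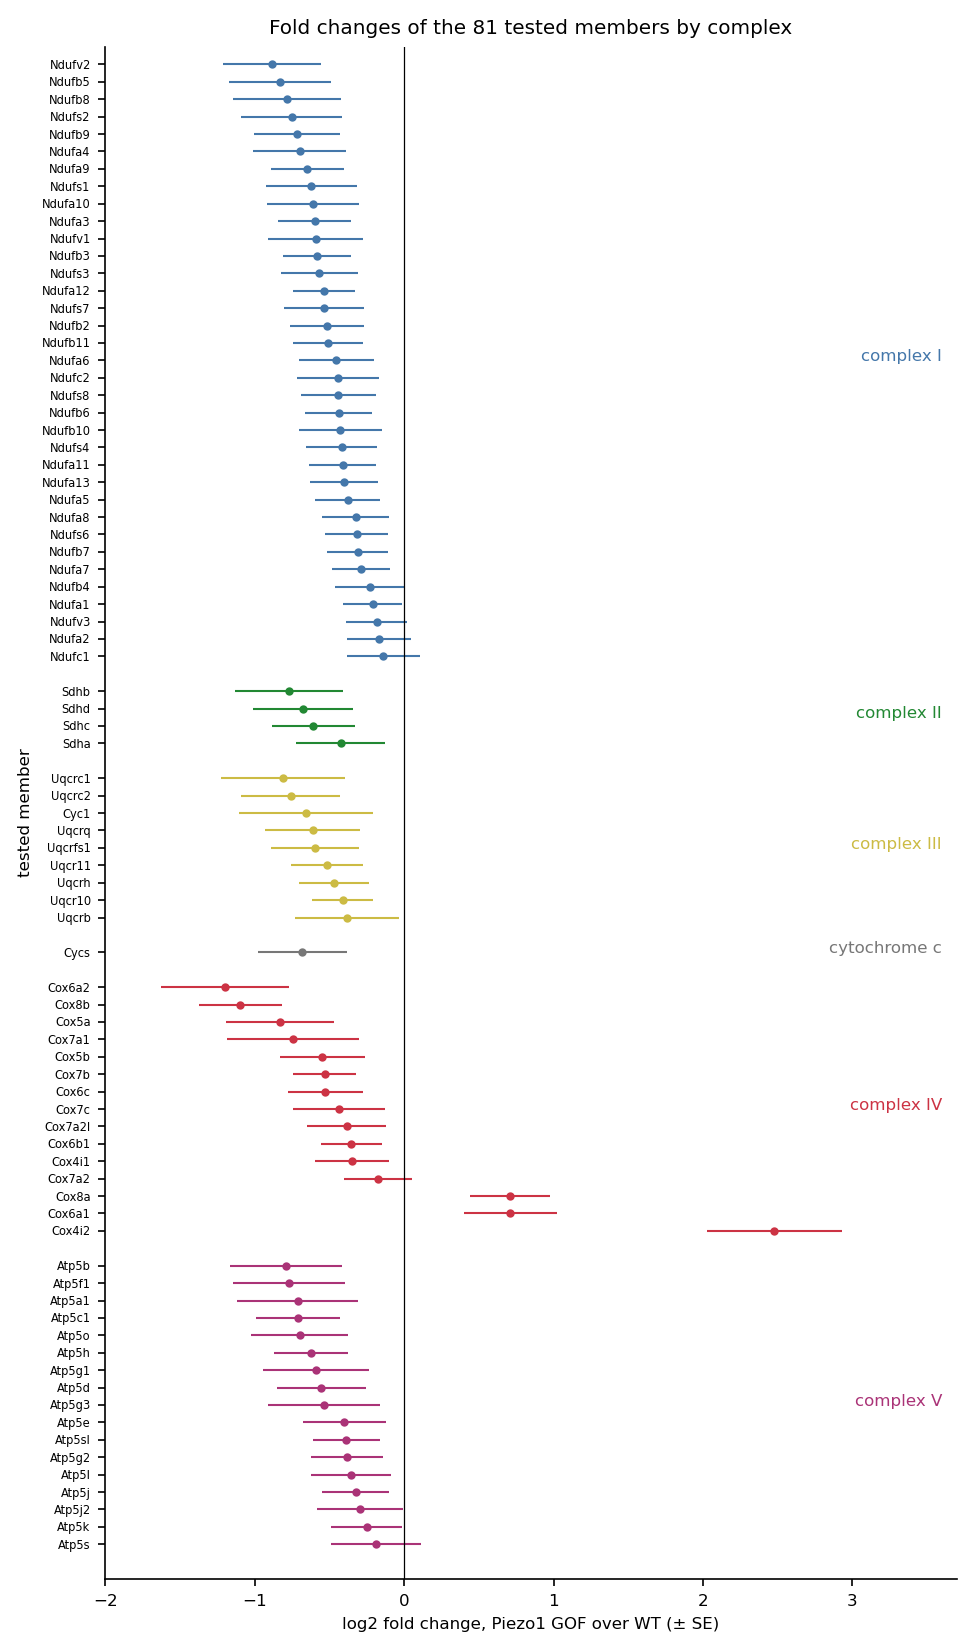
Log2 fold change, Piezo1 GOF over WT, with its SE (bars) for the 81 tested members, ordered within each complex. All members outside complex IV lie left of 0, and Cox8a, Cox6a1 and Cox4i2 are the 3 that lie to the right.

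Complex IV, cytochrome c oxidase, was the complex whose members differed most among themselves, with fold changes from -1.20 to 2.48. Cox4i2 and the tissue-specific and general forms of subunits 6a, 7a and 8, named below, were set apart. The 8 other tested genes, Cox7a2l among them, were like the rest of the chain, all negative with a median of -0.48. Cox5a, a subunit on the matrix side, was the lowest of these 8 (log2 fold change -0.83 ± 0.36; edgeR adjusted p = 0.25) and was chosen after its value was seen. The subunits 6a, 7a and 8 exist as a heart and skeletal muscle form, encoded by Cox6a2, Cox7a1 and Cox8b, and as a general form, encoded by Cox6a1, Cox7a2 and Cox8a. Subunit 4 has a general form, Cox4i1, and a form known from lung and from cells under low oxygen, Cox4i2.

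The muscle forms of subunits 6a and 8 were lower and their general forms higher in the mutant tendons, while for subunit 7a both forms had lower means and overlapping groups. Cox8b lies on chromosome 7, minus strand, 140898945 to 140900446 (mm10, GENCODE), Cox6a2 on chromosome 7, minus strand, 128205435 to 128206387, Cox8a on chromosome 19, minus strand, 7215153 to 7217616, and Cox6a1 on chromosome 5, minus strand, 115345642 to 115348981. Cox6a2 overlaps Itgad on the other strand, and whether counting used strand is not given, so its counts may hold Itgad reads. Cox8b was at 218, 215 and 231 CPM in WT tendon and 127, 67.3 and 116 CPM in mutant tendon. The WT libraries were nearly equal and no mutant library reached them (-1.10 ± 0.28; edgeR adjusted p = 0.125). Its general counterpart Cox8a was at 101, 57.9 and 69.8 CPM in WT tendon and 103, 149.8 and 121 CPM in mutant tendon. Here each mutant library was above each WT library, though Piezo1 GOF replicate 1 only just (0.71 ± 0.27; edgeR adjusted p = 0.206). Cox6a2 was at 375, 546 and 541 CPM in WT tendon and 362, 121 and 154 CPM in mutant tendon. The mutant values stayed below the WT values, with replicate 1 close to WT replicate 1 (-1.20 ± 0.43; edgeR adjusted p = 0.191, and -1.83 without Piezo1 GOF replicate 1). Cox6a1 was at 110.1, 58.4 and 56.1 CPM in WT tendon and 101, 155 and 111 CPM in mutant tendon, and WT replicate 1 reached into the mutant range (0.71 ± 0.31; edgeR adjusted p = 0.251). Without WT replicate 1 the fold change of Cox6a1 was 1.11 (edgeR adjusted p = 0.0714).

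Within each library, the ratio of the muscle to the general paralog does not depend on depth or on scaling. For Cox8b to Cox8a the log2 ratio of counts was 1.11, 1.89 and 1.73 in WT tendon and 0.30, -1.15 and -0.052 in mutant tendon. No mutant library reached a WT library, and the difference of -1.88 had a two-sided exact permutation p = 0.1, the smallest possible here (0.3 after adjustment over the 3 pairs). For Cox6a2 to Cox6a1 the log2 ratio was 1.77, 3.22 and 3.27 in WT tendon and 1.84, -0.36 and 0.47 in mutant tendon. Piezo1 GOF replicate 1 lay just above WT replicate 1, so the groups overlapped (difference -2.10, exact permutation p = 0.2, adjusted p = 0.3). For Cox7a1 to Cox7a2 it was 0.024, -1.70 and 0.022 in WT tendon and -0.64, -1.73 and -0.46 in mutant tendon. The groups overlapped widely, with WT replicate 2 among the lowest (difference -0.39, exact permutation p = 0.5, adjusted p = 0.5), and the difference was -1.5e-05 without Piezo1 GOF replicate 2, -0.11 without WT replicate 1 or WT replicate 3, -0.97 without WT replicate 2 and -0.63 without Piezo1 GOF replicate 3. Cox7a1 itself was at 139, 42.3 and 148 CPM in WT tendon and 83.5, 44.2 and 68.8 CPM in mutant tendon and Cox7a2 at 139.9 ± 4.64 CPM (WT) and 124 ± 26.4 CPM (mutant) (SD, n = 3 each).

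Counts of Cox8b made up 68.3%, 78.8% and 76.8% in WT tendon and 55.2%, 31.01% and 49.1% in mutant tendon of the counts of the pair, so the muscle form took most of them in every WT library and in 1 mutant library. For the pair of subunit 6a, Cox6a2 took 77.3%, 90.3% and 90.6% in WT tendon and 78.2%, 43.8% and 58.1% in mutant tendon. Per kilobase of annotated exon the mean levels in WT and mutant were 615 and 288 CPM for Cox8b, 123 and 201 CPM for Cox8a, 717 and 312 CPM for Cox6a2 and 107 and 174 CPM for Cox6a1. On this scale the muscle forms of both subunits had the higher mean level in both genotypes, by a narrower margin in the mutant. In Piezo1 GOF replicate 2, unlike the other libraries, the general forms of both subunits were the higher ones per kilobase. Exon lengths are those of GENCODE, since the annotation used for counting is not given in the sources used here.

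**Figure D3:**
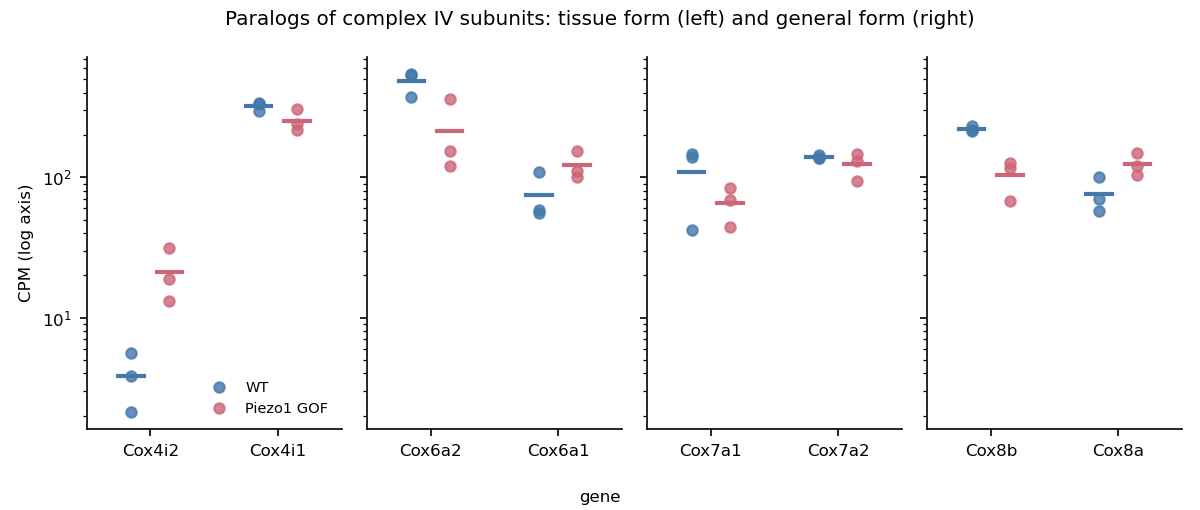
CPM (log axis) of the tissue form and the general form of complex IV subunits 4, 6a, 7a and 8 in the 3 WT and 3 Piezo1 GOF libraries (points; bars are group means). Cox6a2 and Cox8b are lower and Cox4i2, Cox6a1 and Cox8a higher in the mutant means, while Cox7a1 and Cox7a2 overlap.

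The promoters of the muscle and general forms differ in sequence. The 250 bases before the annotated start are shown for the 5 paralogs found in the RefSeq table (build GRCm38.p6), 5′ to 3′. CG dinucleotides are in capitals, because their number differed between the muscle and general forms among these 5, which lack Cox6a2.
Cox8b (muscle form, chr7:140900447-140900696, minus strand): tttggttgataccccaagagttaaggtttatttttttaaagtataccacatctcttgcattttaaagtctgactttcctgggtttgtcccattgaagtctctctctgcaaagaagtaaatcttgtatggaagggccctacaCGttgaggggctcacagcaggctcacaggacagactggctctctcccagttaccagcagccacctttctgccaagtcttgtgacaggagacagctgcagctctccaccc
Cox7a1 (muscle form, chr7:30183921-30184170, plus strand): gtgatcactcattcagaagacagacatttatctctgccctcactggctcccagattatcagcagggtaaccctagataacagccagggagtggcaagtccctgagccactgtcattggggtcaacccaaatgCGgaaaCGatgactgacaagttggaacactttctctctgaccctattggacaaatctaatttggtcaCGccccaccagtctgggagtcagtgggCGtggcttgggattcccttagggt
Cox8a (general form, chr19:7217617-7217866, minus strand): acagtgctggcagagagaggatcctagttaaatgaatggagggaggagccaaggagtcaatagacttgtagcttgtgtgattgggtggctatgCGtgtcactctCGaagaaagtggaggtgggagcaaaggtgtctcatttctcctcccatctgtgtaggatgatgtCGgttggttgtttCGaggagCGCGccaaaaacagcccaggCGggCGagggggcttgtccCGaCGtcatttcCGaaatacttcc
Cox7a2 (general form, chr9:79759854-79760103, minus strand): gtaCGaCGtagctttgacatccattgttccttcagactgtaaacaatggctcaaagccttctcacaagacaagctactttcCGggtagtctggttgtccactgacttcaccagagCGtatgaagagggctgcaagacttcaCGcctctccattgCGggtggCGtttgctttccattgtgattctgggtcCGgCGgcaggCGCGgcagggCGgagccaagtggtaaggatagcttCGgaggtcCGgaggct
Cox6a1 (general form, chr5:115348959-115349208, minus strand): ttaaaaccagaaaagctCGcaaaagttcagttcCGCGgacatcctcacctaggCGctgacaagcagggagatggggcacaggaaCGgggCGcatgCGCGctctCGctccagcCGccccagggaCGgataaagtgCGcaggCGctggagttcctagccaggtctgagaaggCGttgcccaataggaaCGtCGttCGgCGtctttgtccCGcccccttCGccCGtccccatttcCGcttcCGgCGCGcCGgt

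These stretches hold 1 CG in Cox8b and 4 in Cox7a1, the muscle forms, and 11 in Cox8a, 14 in Cox7a2 and 26 in Cox6a1, the general forms. The median was 14 over the 72 promoters of the 67 members found in the table and 6 over all 32851 promoters. Cox8b and Cox7a1 lay below both medians and Cox8a between them. Low counts were not limited to muscle forms, since Ndufc2 had 4 CG and Cox7b and Uqcr10 had 5 each. The Cox6a1 promoter also holds the strict motif of the nuclear respiratory factor NRF1, starting 162 bases before the start. CG counts were looked at after the sequences had been seen. Cox7a1 and Cox7a2, which also differ in CG count, had overlapping levels.

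Cox4i2 had the largest fold change and the smallest p of the 81 tested members, in the direction opposite to the rest of the chain. The gene lies on chromosome 2, plus strand, 152754173 to 152765037 (mm10, GENCODE). It was at 5.59, 2.11 and 3.85 CPM in WT tendon and 18.98, 31.6 and 13.05 CPM in mutant tendon. Every mutant library was above every WT library (log2 fold change 2.48 ± 0.45; edgeR adjusted p = 0.0648). It passed without WT replicate 1 (edgeR adjusted p = 0.0398; 1.32% of genes called higher and 0.332% lower), without a filter on low counts (0.0181; 0.767% higher and 0.131% lower), at a threshold of 0.1 (0.951% higher and 0.171% lower), by DESeq2 (3.22e-05) and by the exact test (9.44e-05), and not by limma voom (0.0585). It did not pass in the other 5 fits that each left out 1 library (edgeR adjusted p from 0.0976 to 0.226) or with the replicate number as a block (0.262). Its general counterpart Cox4i1 was at 323 ± 23.2 CPM (WT) and 254 ± 46.2 CPM (mutant) (SD, n = 3 each; -0.35 ± 0.25; edgeR adjusted p = 0.449). Counts of Cox4i2 made up 1.66%, 0.705% and 1.11% in WT tendon and 5.85%, 12.7% and 5.17% in mutant tendon of the counts of both, so Cox4i1 took most of them in every library. Per kilobase of exon the mean levels in WT and mutant were 4.88 and 26.9 CPM for Cox4i2 and 209 and 164 CPM for Cox4i1. Cox4i1 overlaps Emc8 on the other strand and Gm20388 on its own strand, so its counts may hold reads of both.

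Ndufa4l2, a paralog of Ndufa4 that the symbol rule leaves out and that is known, like Cox4i2, from low oxygen and from pericytes, was at 16.9, 7.86 and 12.6 CPM in WT tendon and 53.6, 82.1 and 39.7 CPM in mutant tendon. Its groups did not overlap either (2.24 ± 0.36; edgeR adjusted p = 0.0572), while Ndufa4 had the opposite sign (-0.70 ± 0.31). Pericyte markers, a list added after the Cox4i2 values were seen, had values in the other direction. Of 7, 6 had negative fold changes, with a median of -0.88 over the 7. The groups did not overlap for 4, all lower (57.1%, against 12.1% of all genes). Rgs5, a regulator of G protein signalling that marks pericytes, was at 655 ± 106 CPM (WT) and 329 ± 81.3 CPM (mutant), and the potassium channel genes Kcnj8 and Abcc9 at 69.5 ± 12.6 and 42.5 ± 6.1 CPM and 227 ± 38.2 and 108 ± 39.2 CPM (SD, n = 3 each). The highest of the 7 was Cspg4 at 0.38 ± 0.33. The part of pericytes in the levels of Cox4i2 and Ndufa4l2 was not tested. Ndufa4l2 overlaps Shmt2 on the opposite strand, and whether strand was used in counting is not given, so its counts may hold Shmt2 reads.

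Both the members and the contractile muscle genes had lower shares of counts in the mutant libraries. Contractile muscle genes had a median fold change of -1.17 (log2) over 28 tested, all negative, further from 0 than that of the members. The 6 slow fibre genes had a median of -1.47 and the 13 fast fibre genes one of -0.62. The log2 ratio of member counts to contractile muscle counts was -2.19, -3.51 and -3.07 in WT tendon and -2.38, -1.61 and -2.56 in mutant tendon. The mean ratio was higher in the mutant by 0.74, with overlapping groups (two-sided exact permutation p = 0.3). That difference was 0.44 without WT replicate 2 and 0.45 without Piezo1 GOF replicate 2, against 1.11 without WT replicate 1, 0.29 against fast fibre genes and 1.21 against slow fibre genes. Within WT, the library with the most muscle RNA, replicate 2, had the smallest member share, and replicate 1, with the least, had the largest.

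With the muscle score (the mean log2 CPM of the contractile list) added to the fit, 76 of the 81 members still had negative values, the median was -0.33 against -0.028 over all genes, and 0 members and 0 genes passed (edgeR; 3 members had an unadjusted p under 0.05). Cox8b was then at -0.73 ± 0.28, Cox6a2 at -0.52 ± 0.40, Cox6a1 at 0.17 ± 0.29, Cox8a at 0.24 ± 0.24 and Cox4i2 at 1.62 ± 0.38. The values of Cox6a1 and Cox8a were then about as large as their SE or smaller, and that of Cox4i2 was larger than its SE (edgeR adjusted p = 0.43). The medians of complexes I to V were then -0.32, -0.32, -0.33, -0.41 and -0.27. Without the muscle score they were -0.45, -0.64, -0.60, -0.44 and -0.54, so that of complex IV moved least. Muscle score and genotype cannot be told apart in these 6 libraries, because the groups do not overlap in muscle share.

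**Figure D4:**
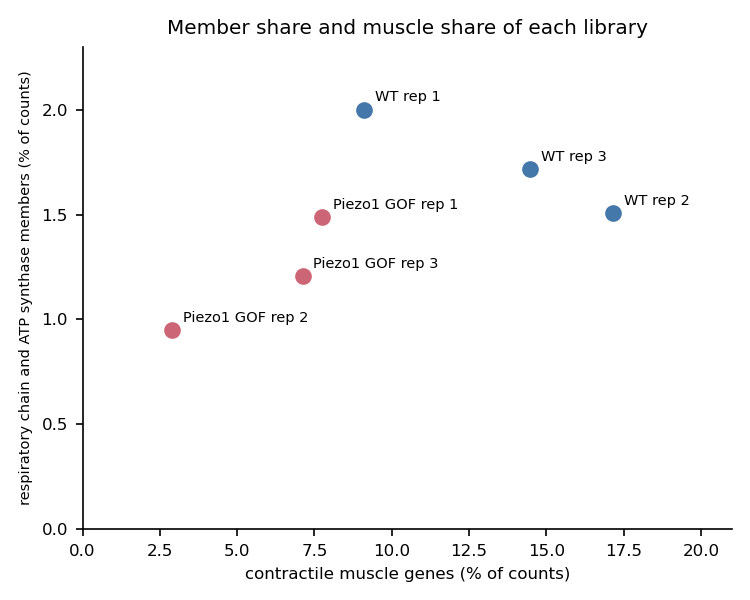
Percent of counts from the 85 members (y axis) against percent of counts from 28 contractile muscle genes (x axis), 1 point per library. The mutant libraries lie lower on both axes, and within WT the library with the largest muscle share has the smallest member share.

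Brown adipocytes and osteoclasts are other cells rich in mitochondria. Ucp1, the uncoupling protein that defines brown fat, had 0 counts in all 6 libraries, and Cidea was at 3.69 ± 0.826 CPM (WT) and 1.32 ± 0.114 CPM (mutant) (SD, n = 3 each). Osteoclast markers took 0.00775%, 0.00104% and 0.00308% in WT tendon and 0.00605%, 0.015% and 0.0125% in mutant tendon, with higher values in the mutant mean and overlapping groups. White adipocyte, macrophage and erythroid markers had positive medians (1.31, 1.71 and 1.22) and endothelial markers a negative one (-0.41). Macrophage markers took between 0.0156% and 0.0258% of counts in WT and between 0.0617% and 0.0862% in Piezo1 GOF. The part of these cells in the member levels was not tested.

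Other nuclear genes of mitochondrial energy metabolism had the same sign, and those of mitochondrial gene expression and assembly were closer to 0. All 17 genes of fatty acid oxidation had negative fold changes, with a median of -0.83. Of them, 13 (76.5%) had an unadjusted p under 0.05, against 9.59% of all genes in that direction. For 13 (76.5%) the groups did not overlap, against 12.1% of all genes. Etfdh, which passes electrons from fatty acid oxidation to ubiquinone, was at 129, 118 and 139 CPM in WT tendon and 92.6, 57.6 and 65.3 CPM in mutant tendon. All mutant values were below all WT values (-0.84 ± 0.23; edgeR adjusted p = 0.145). Eci1, an isomerase for unsaturated fatty acids, was at 76.7 ± 8.08 CPM (WT) and 41.9 ± 9.7 CPM (mutant) (SD, n = 3 each; -0.87 ± 0.23; edgeR adjusted p = 0.133). The 13 citric acid cycle genes had a median of -0.70 and the 6 genes of pyruvate entry one of -0.64, all negative. Fumarase (Fh1) was at 139.5 ± 4.32 CPM (WT) and 82.2 ± 28.2 CPM (mutant) and the pyruvate carrier subunit Mpc1 at 417 ± 76.3 CPM (WT) and 232 ± 62.4 CPM (mutant), both without overlap. The succinate-CoA ligase subunit Suclg2 and the pyruvate dehydrogenase subunit Pdha1 had fold changes of -0.73 ± 0.27 and -0.91 ± 0.32. None of these genes passed over all genes by edgeR. DESeq2, which called 2.74% of its genes lower, called Etfdh, Eci1, Mpc1 and Pdha1 lower. The named genes were those with the smallest p of their lists.

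Carriers and channels of the mitochondrial membranes had a median of -0.57, with 9 of 10 negative. The aspartate-glutamate carrier of muscle, Slc25a12, was at 252 ± 35.5 CPM (WT) and 133 ± 48.3 CPM (mutant) (SD, n = 3 each; -0.92 ± 0.31), and its paralog Slc25a13, known from liver, at 0.847 ± 0.386 CPM (WT) and 2.66 ± 1.36 CPM (mutant) (1.66 ± 0.65), the only positive value among the 10. Among the 17 tested regulators of mitochondrial biogenesis, 13 were negative with a median of -0.49. The estrogen-related receptor Esrrg, which drives oxidative genes in muscle, was at 78.4, 104 and 143 CPM in WT tendon and 59.2, 20.4 and 32.9 CPM in mutant tendon. No mutant library reached the WT range (-1.53 ± 0.39; edgeR adjusted p = 0.127). Ppara, a receptor that switches on fatty acid oxidation, was at 55.5 ± 27.9 CPM (WT) and 15.9 ± 11.8 CPM (mutant) (-1.82 ± 0.58), with overlap. Both had the smallest p of their list, and DESeq2 called both lower (2.74% of its genes).

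The median was -0.29 over 77 mitochondrial ribosomal protein genes (58 negative), -0.32 over 22 genes of protein import (17 negative), and -0.21, -0.30, -0.37 and -0.44 over the 14, 10, 19 and 3 tested assembly factors of complexes I, II with III, IV and V. Each of these 4 medians lay nearer to 0 than that of the subunits, a difference that was not tested. The complex I assembly factor Timmdc1 was at 22.1 ± 5.98 CPM (WT) and 11.96 ± 1.24 CPM (mutant) and Tmem186 at 25.3 ± 2.01 CPM (WT) and 15.05 ± 2.83 CPM (mutant) (SD, n = 3 each), both without overlap. Others with the smallest p of their list were Uqcc1 (-0.52 ± 0.26) and Sdhaf2 (-0.29 ± 0.19) for complexes III and II, the copper-handling factors Cox19 (-0.54 ± 0.22) and Cox11 (-0.49 ± 0.24) for complex IV, and Atpaf1 (-0.67 ± 0.29) and Tmem70 (-0.44 ± 0.25) for complex V. The import channel genes Timm23 and Timm17a had fold changes of -0.79 ± 0.27 and -0.59 ± 0.22, and the ribosomal proteins Mrpl14 and Mrps30 of -0.74 ± 0.24 and -0.85 ± 0.29, each without overlap.

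**Figure D5:**
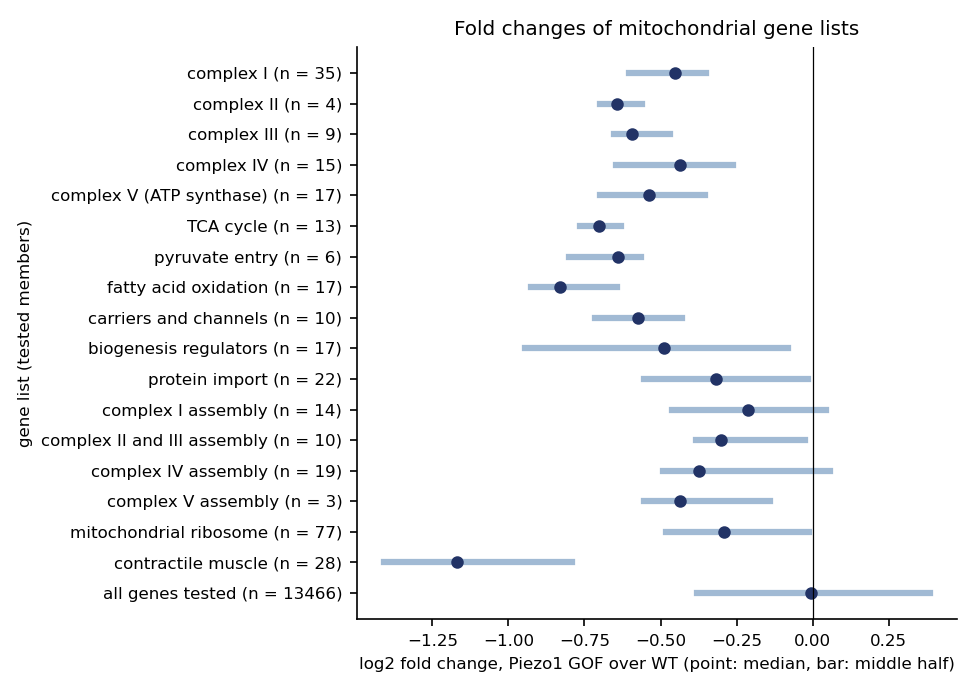
Median log2 fold change (points) and interquartile range (bars) over the tested genes of each complex, of other mitochondrial lists, of contractile muscle genes and of all genes. Fatty acid oxidation has the lowest median of the mitochondrial lists, at -0.83, and contractile muscle lies lower, at -1.17.

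Among the members, those with higher CPM had the lower fold changes. The 27 members with the highest mean WT CPM had a median of -0.70, the next 27 of -0.52 and the last 27 of -0.35. Spearman's rho between mean WT CPM and fold change was -0.60 over the 81 members, a description only, since the WT values enter both quantities and the members share their libraries. With WT CPM per kilobase of exon in place of CPM, rho was -0.29 over the 79 tested members with a single match in GENCODE. Against exon length, rho was -0.32 over the same 79.

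Motifs of known regulators of respiratory genes were counted in the promoters of the members and of all genes, and the differences were not tested. A form of the NRF1 motif with its middle base free, which includes the strict form, was found on either strand in 17 of 67 members (25.4%) and in 5.19% of 27025 genes, within 250 bases before and 50 after the start. The strict form was in 5 members (Atp5g2, Atp5k, Cox6a1, Ndufa11 and Uqcrc1), or 7.46%, against 1.07%. The YY1 motif AAGATGGC was in 13.4% of members and 3.19% of genes, the estrogen-related receptor motif TCAAGGTCA in 2.99% (Atp5g3 and Sdhd) and 0.466%, and the ETS motif CCGGAAGT in 7.46% and 4.31%. The motif of MEF2, a muscle transcription factor, was in 1.49% of members and 4.23% of genes. TATAAA on the strand of the gene, added after values were seen, was in 4.48% of members (Cox8b, Ndufa3 and Ndufs7) and 9.77% of genes. Member promoters also hold more CG than promoters at large, as given above, and its part in the shares of CG-rich motifs was not tested. A match describes these letters in this window and is not a measured binding site.

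The 4 members without enough counts to be tested were Cox6b2, Cox7b2, Cox8c and Ndufs5. Cox7b2 and Cox8c had 0 counts in all 6 libraries. Cox6b2, known from testis, was at 0.322, 0.128 and 0 CPM in WT tendon and 0, 1.1 and 0.741 CPM in mutant tendon. Ndufs5, an accessory subunit of complex I, was at 0, 0 and 1.92 CPM in WT tendon and 2.34, 0 and 0 CPM in mutant tendon, with 0 counts in 4 libraries, although its complex was well detected otherwise. Many subunit genes have near-identical processed pseudogenes, between which counting may split reads, so the levels of such genes are uncertain.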

How the data were processed

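Libraries were made from total RNA with a RamDA-seq kit, per the labels' protocols. The deposited table holds expected counts per gene for 6 libraries, not scaled for depth or length. That these are expected counts was read from the deposited values, of which 7.80% to 8.88% per library are not whole, and from the submitters' processing notes, which name bcl2fastq, STAR, RSEM and edgeR and the build mm10. Their roles and versions, the annotation and the strandedness are not stated there. Counts were rounded, filtered with filterByExpr (minimum count 10; 13466 genes kept), scaled by TMM and compared with edgeR's quasi-likelihood test, two-sided, without covariates, with Benjamini-Hochberg adjustment over all genes and a threshold of 0.05. SE is the size of the log2 fold change divided by the root of F. The common dispersion was 0.113. The fit was tested on simulated counts. Shares and ratios of counts (pseudocount 0.5) were compared by exact permutation, two-sided. Alternatives were other scalings and filters, DESeq2, limma voom, edgeR's exact test, a replicate block, a muscle score, and leaving out each library. Coordinates and exon lengths are from GENCODE mouse release 21 (mm10; 83 of 85 members matched), promoters from RefSeq. Overlaps with other genes were looked up only for Ndufv2, Ndufb5, Ndufs5, Ndufa4l2, Cox4i1, Cox4i2 and the paralogs of subunits 6a, 7a and 8. 1 marker gene is not reported here. The members and the 24 gene lists, with 315 entries of which 312 were in the table, were chosen with earlier results of these data known. Named were the 6 paralogs of subunits 6a, 7a and 8, the 4 members with the smallest p, the member with the highest CPM and the 2 with the highest fold change of complexes I, III, IV and V, all of complex II and Cycs, and up to 2 genes with the smallest p of each other mitochondrial list. Cox4i1, Cox5a, Ndufa4l2, single marker genes, the pericyte and smooth muscle lists, TATAAA and the CG count were chosen after values were seen. Libraries of a genotype were not copies of each other (chi-square per degree of freedom 40.9 to 141). Software: edgeR 4.0.16, limma 3.58.1 and DESeq2 1.42.0 in R 4.3.3; scipy 1.17.1, matplotlib 3.10.9, pandas 2.3.3 and numpy 2.4.6 in Python 3.11.15.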

Additional observations from a re-analysis of the deposited data

How the results depend on the processing

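The sign of each complex's median, of the shares and of the paralog ratios was kept under every alternative run. For Cox7a1 to Cox7a2, though, the difference was only -1.5e-05 without Piezo1 GOF replicate 2. The groups of the member share overlapped once Rn45s and Lars2 were left out of the totals. Leaving out single libraries gave ranges of -0.70 to -0.34 for the median of all members, -0.69 to -0.33 for complex I, -0.96 to -0.38 for II, -0.81 to -0.40 for III, -0.65 to -0.34 for IV and -0.80 to -0.30 for V. The count of members called higher was 1 (Cox4i2) in place of 0 with DESeq2, with edgeR's exact test, without a filter on low counts, and at an adjusted p of 0.1, and 0 to 1 without single libraries. The count called lower was 2 with DESeq2 (Cox6a2 and Cox8b) and 1 with the exact test (Cox8b), against 0, and the cause was not tested. Ndufa2 reversed to 0.028 with the muscle score and ran from -0.29 to 0.0012 without single libraries, and Ndufc1 from -0.33 to 0.026 (0.018 without WT replicate 1). Scaling by total counts moved the median of all genes to 0.10 and that of the members to -0.43. With the replicate number as a block, 0 members passed and the median of all members was -0.54. Same-numbered libraries did not deviate together (correlations -0.21, -0.14 and -0.05). That gives no sign of pairing by number, but with so few libraries it cannot exclude it. With 3 libraries per genotype, the exact tests cannot go below 0.1. Cox6b2 and Ndufs5 had too few counts to be tested.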
